A study of Arabidopsis thaliana with 12 samples.

Results

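The genes described are 5 enzymes of pigment synthesis in Arabidopsis thaliana, chosen by locus: HEMA3 (AT2G31250), SIRB (AT1G50170), CHLM (AT4G25080), AT1G74470, which encodes geranylgeranyl reductase, and Z-ISO (AT1G10830). Each had 1 probe paired with that gene alone, among 691 genes that had a probe of their own on the array. Transcripts were measured in total RNA of wild-type plants of the ecotype Wassilevskija. The 6 proline samples came from plants given 100 mM proline for 6 h, and the 6 water samples from plants given water, for which the labels state no duration. Neither organ nor age is labelled, nor whether each sample was a plant of its own, so the p-values speak only of the spread among these 12 samples, some of which may be technical. In such bulk RNA, fewer cells of a type and less RNA per cell cannot be told apart.

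Plants make chlorophyll, heme and siroheme from a shared chain of tetrapyrrole intermediates in the plastid. The chain starts with glutamyl-tRNA reductase, encoded by the HEMA genes, which commits glutamate to 5-aminolevulinate. It then divides. An early branch leads to siroheme, the cofactor of nitrite and sulfite reductases, which is completed by the insertion of iron. A later branch inserts magnesium on the way to chlorophyll. The phytyl tail of chlorophyll comes from the plastid isoprenoid pathway, which also feeds the carotenoids that protect the photosystems from excess light.

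The deposited intensities ran from 0 to 100 for 3439 probes. The median of a sample lay between 0.171 and 0.188 in water and between 0.213 and 0.361 in proline, with proline samples 3 and 4 the highest at 0.361 and 0.350. Levels below are quantile-normalized intensities unless called deposited, and values under a floor of 0.0377 were set to it. Samples numbered 1 and 2 were more alike than others of their group, as were 3 and 4, and 5 and 6, so 6 samples may count fewer independent plants. For that reason the test on the 3 means of these pairs stands beside the test on 6 samples.

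Of the 5 genes, AT1G74470 was called higher with proline, SIRB and CHLM were called lower, and HEMA3 and Z-ISO did not pass the test (limma, Benjamini-Hochberg adjusted p under 0.05 over all tested probes). Over the array, 17.1% of the 3097 tested probes were called higher and 20.9% lower, so calls of either kind were common. Of these calls 45.0% were higher with proline, against 39.8% under median centring and 87.0% of the calls made on deposited values. With the means of sample pairs 17.1% of probes were called in either direction, and none of the 5 genes was. The median log2 fold change over all tested probes was -0.030. Over the 5 genes it was -0.35, which is the value of Z-ISO (SE 0.49, limma adjusted p = 0.605). Z-ISO stood at 0.032 without proline sample 5, so this median does not show a fall of the 5 genes as a group.

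**Figure D1:**
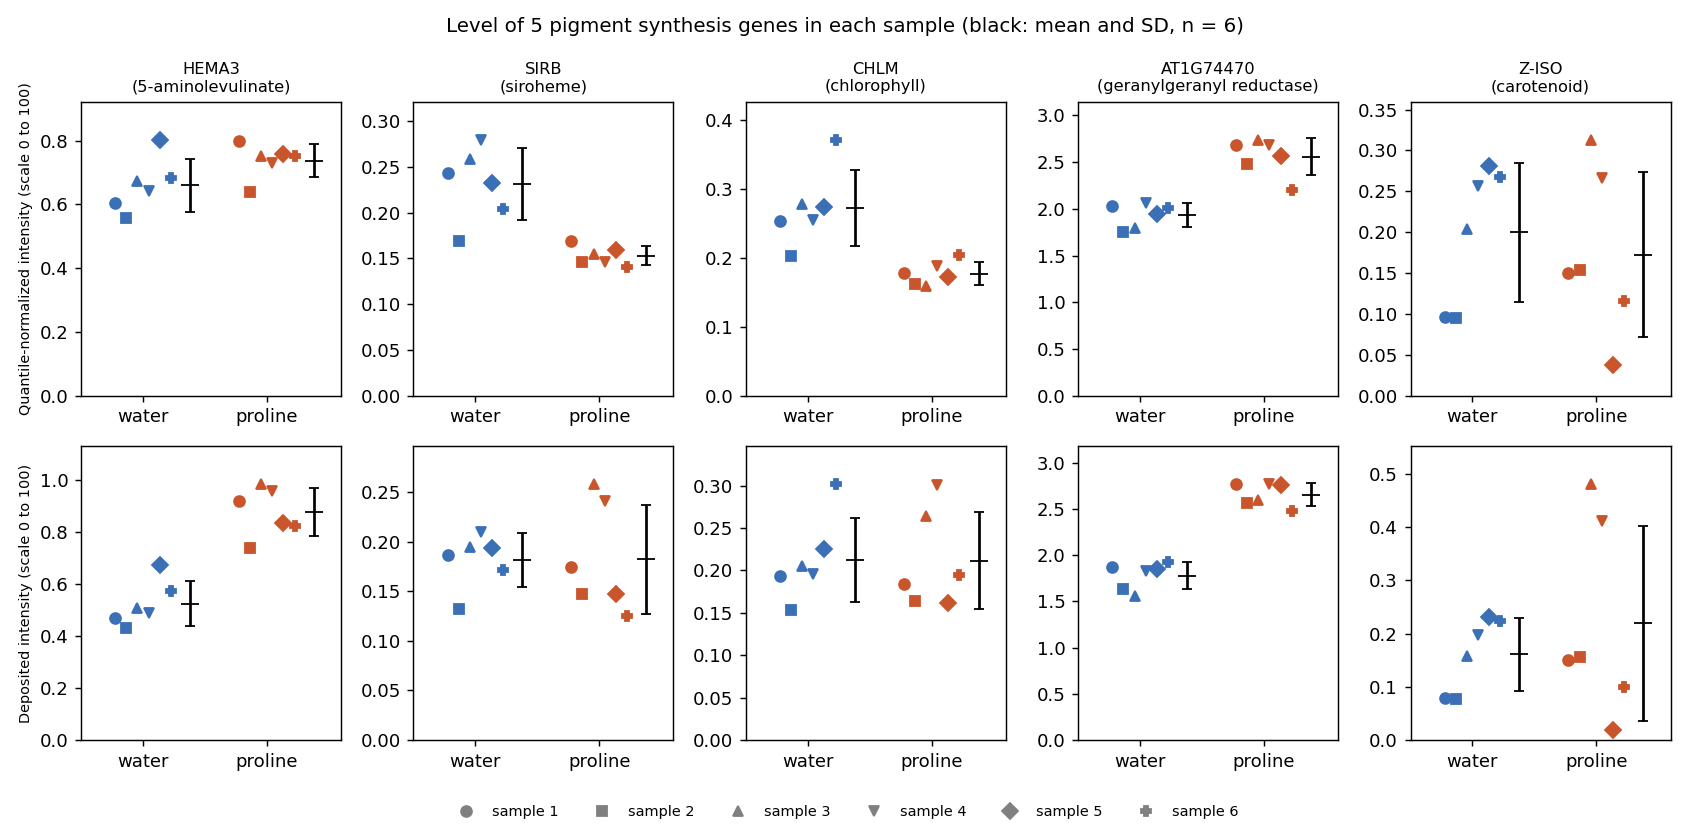
Level of each gene in every sample, as quantile-normalized intensity (top row) and as deposited intensity (bottom row), with symbols for sample numbers 1 to 6 and black marks for the mean and SD (n = 6 per group). After normalization SIRB and CHLM were lower with proline, while in the deposited values proline samples 3 and 4 lay above the other proline samples for SIRB, CHLM and Z-ISO.

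At the head of the tetrapyrrole chain, HEMA3 is a member of the small glutamyl-tRNA reductase family, in which HEMA1 is the main light-regulated gene of green tissue. Its level ran from 0.557 through a median of 0.658 to 0.801 in water, and from 0.640 through 0.750 to 0.797 in proline. The groups overlapped: water sample 5 was the highest of all 12 samples. The log2 fold change was 0.17 (SE 0.10, 95% interval -0.053 to 0.38, limma adjusted p = 0.224), an interval from a small fall to a 1.30-fold rise. The deposited values of HEMA3 told the groups apart completely, at 0.432 to 0.673 in water and 0.741 to 0.984 in proline. In the deposited values 1191 of 3085 tested probes were called higher, and the share without overlap was not computed. There the log2 fold change of HEMA3 was 0.75 (adjusted p = 0.00039), while the median of all probes was itself 0.41 higher with proline. Relative to that median HEMA3 stood at 0.34, against 0.20 after quantile normalization. HEMA3 also passed under median centring when proline samples 3 and 4 were left out, a setting chosen after the data were seen (log2 fold change 0.32, adjusted p = 0.043). Whether the probe also binds RNA of other HEMA genes was not tested.

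On the siroheme branch, SIRB encodes sirohydrochlorin ferrochelatase, which inserts the iron that completes siroheme. SIRB stood between 0.169 and 0.279 in water, with a median of 0.238. In proline it lay between 0.141 and 0.169, with a median of 0.151. The only crossing of the groups was that of water sample 2, at 0.1689, with proline sample 1, at 0.1695. SIRB fell by 33.1% (log2 fold change -0.58, SE 0.12, 95% interval -0.85 to -0.32, limma adjusted p = 0.0026). With the means of sample pairs it missed the threshold (adjusted p = 0.054).

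On the magnesium branch, CHLM encodes magnesium-protoporphyrin IX methyltransferase, an early enzyme of the steps that belong to chlorophyll alone. Its level was 0.202 to 0.371 in water, with a median of 0.264. In proline it was 0.160 to 0.205, with a median of 0.175. Again a single pair of samples crossed, water sample 2 at 0.2024 and proline sample 6 at 0.2048. CHLM fell by 34.0% (log2 fold change -0.60, SE 0.13, 95% interval -0.89 to -0.31, limma adjusted p = 0.0036; with the means of sample pairs 0.061).

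The falls of SIRB and CHLM were relative to the array, and the deposited values did not show them. The mean of SIRB there was 0.181 ± 0.027 with water and 0.182 ± 0.055 with proline, and that of CHLM 0.212 ± 0.049 and 0.211 ± 0.057 (SD, n = 6 per group). Their log2 fold changes were -0.030 and -0.018 (limma adjusted p = 0.915 and 0.950). In proline samples 3 and 4, whose medians were the highest, SIRB reached 0.258 and 0.241 and CHLM 0.264 and 0.300, against at most 0.175 and 0.195 in the other proline samples. Relative to the median of all probes, SIRB was at -0.44 and CHLM at -0.43 in the deposited values, and at -0.55 and -0.57 after quantile normalization. Without proline samples 3 and 4 the deposited log2 fold changes were -0.28 for SIRB and -0.25 for CHLM, neither past the threshold (adjusted p = 0.143 and 0.273). The part that the scaling of the samples plays in these calls was not tested beyond these values.

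AT1G74470 encodes geranylgeranyl reductase, which reduces the geranylgeranyl group to the phytyl tail of chlorophyll, tocopherol and phylloquinone, and so ties the isoprenoid supply to chlorophyll. Its level ran from 1.75 through a median of 1.98 to 2.06 in water, and from 2.20 through 2.62 to 2.73 in proline. It was the only member whose groups did not overlap, where 10.4% of tested probes were higher without overlap and 12.1% lower. The rise was 1.32-fold (log2 fold change 0.40, SE 0.086, 95% interval 0.22 to 0.59, limma adjusted p = 0.0028; with the means of sample pairs 0.092). Of all tested probes, 21.3% had a higher log2 fold change.

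In the deposited values AT1G74470 also separated the groups, at 1.56 to 1.93 in water and 2.48 to 2.76 in proline (log2 fold change 0.58, adjusted p = 0.00022). Among those values 1191 of 3085 tested probes were called higher, and the share without overlap was not computed. Dividing each sample by its median removed the difference of AT1G74470 (log2 fold change 0.0091, 95% interval -0.32 to 0.34, adjusted p = 0.970). On that scale proline samples 3 and 4 stood at 7.19 and 7.90 times their sample's median, below all water samples at 9.08 to 10.9, while the other proline samples stood at 10.9 to 12.9. Without those 2 samples, a setting chosen after the data were seen, the log2 fold change under median centring was 0.22 (adjusted p = 0.0496).

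**Figure D2:**
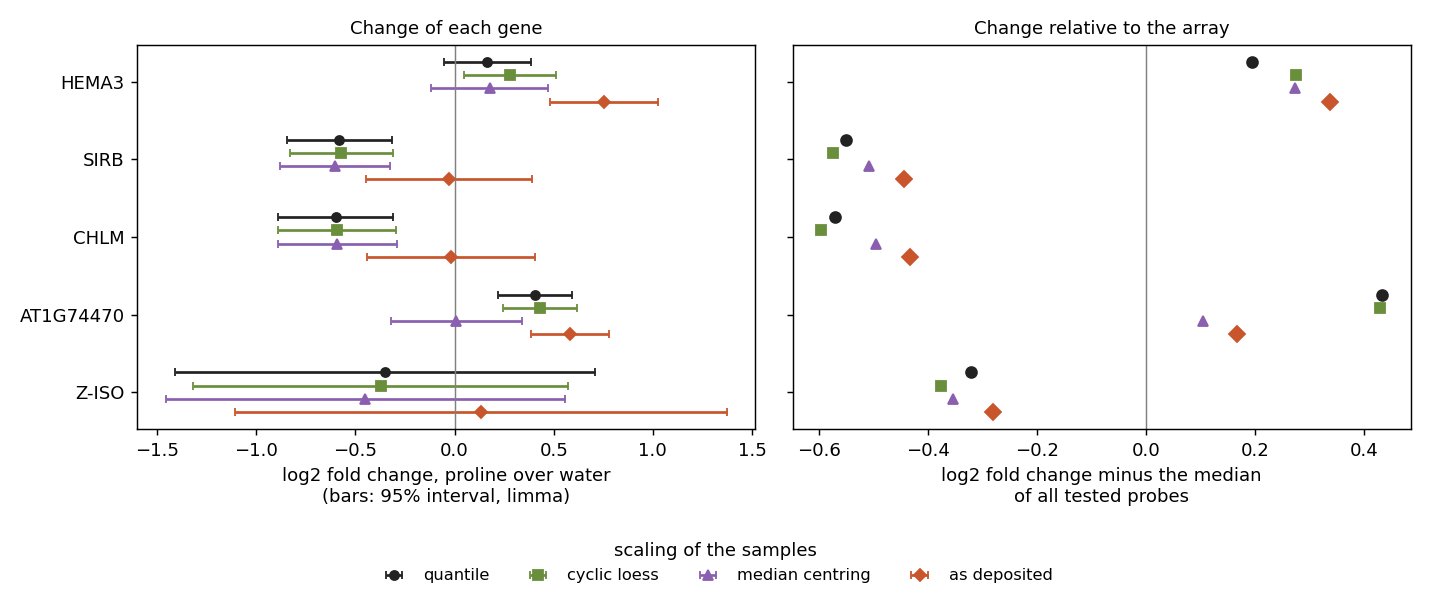
Log2 fold change of proline over water for each gene under 4 scalings of the samples, with 95% limma intervals (left), and the same values minus the median of all tested probes (right). Relative to that median, HEMA3 and AT1G74470 lay above 0 and SIRB, CHLM and Z-ISO below 0 under all 4 scalings, although Z-ISO passed the test under none and HEMA3 under the deposited scaling alone.

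In carotenoid synthesis, Z-ISO encodes the isomerase that turns 15-cis-zeta-carotene into the form that zeta-carotene desaturase uses, between the desaturation steps that lead to lycopene. In water it stood at 0.096 and 0.095 in samples 1 and 2, at 0.204 and 0.257 in samples 3 and 4, and at 0.281 and 0.267 in samples 5 and 6. In proline the same numbers gave 0.150 and 0.153, then 0.313 and 0.266, then 0.0377, which is the floor, and 0.116. Proline samples 5 and 6 were below the water samples of the same numbers, proline samples 1 to 4 were above theirs, and the groups overlapped widely.

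The log2 fold change of Z-ISO was -0.35 with an SE of 0.49 (95% interval -1.41 to 0.71, limma adjusted p = 0.605). That interval holds a 1.63-fold rise and a fall to 0.38 of the water level, so the size and direction of any difference were not detectable with these samples. Taken by number, Z-ISO was 1.59-fold higher with proline in samples 1 and 2, 1.26-fold higher in samples 3 and 4, and 4.15-fold lower in samples 5 and 6. The deposited values gave the same signs, with log2 fold changes of 0.96, 1.34 and -1.89, and proline sample 5 stood there at 0.019. Residual spread around the group means was 0.93 on the log2 scale, larger than that of 95.7% of tested probes. The other members were among the steadier probes, with residual SDs of 0.11 for AT1G74470, 0.15 for HEMA3, 0.20 for SIRB and 0.22 for CHLM.

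**Figure D3:**
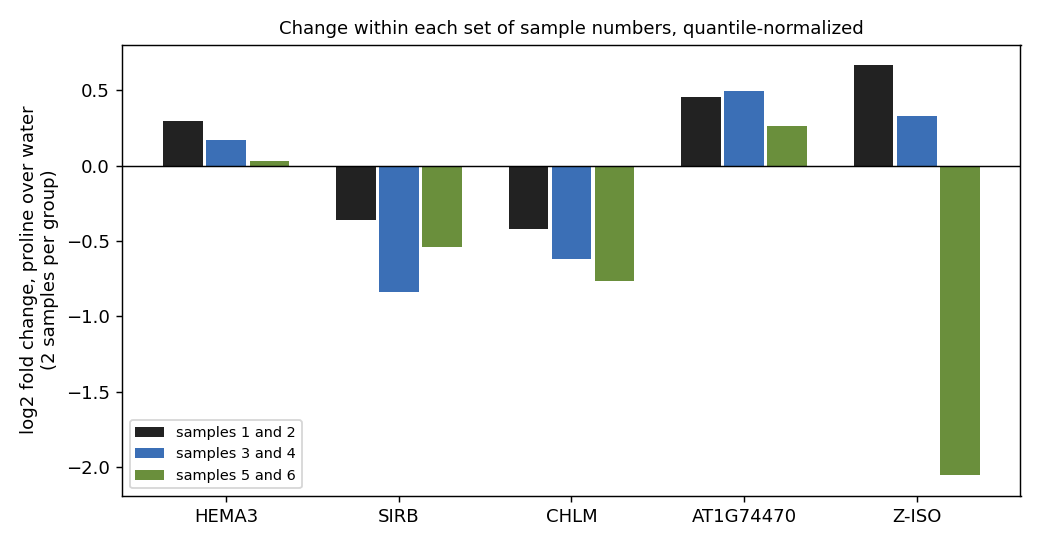
Log2 fold change of proline over water of each gene, taken separately within samples 1 and 2, samples 3 and 4, and samples 5 and 6 (bars, 2 quantile-normalized samples per group). SIRB and CHLM were lower and AT1G74470 and HEMA3 higher in every set of numbers, while Z-ISO was higher in the first sets and lower in samples 5 and 6.

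The other members kept their sign in each set of numbers. SIRB was at -0.36 in samples 1 and 2, -0.84 in samples 3 and 4, and -0.54 in samples 5 and 6. CHLM was at -0.42, -0.62 and -0.76, and AT1G74470 at 0.45, 0.50 and 0.26. HEMA3 was at 0.30, 0.17 and 0.029, so its difference was close to 0 in samples 5 and 6. In the deposited values SIRB and CHLM did not keep their sign: SIRB was at 0.036, 0.30 and -0.43, and CHLM at 0.010, 0.49 and -0.55.

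To compare the branches with each other, the log2 ratio of each pair of genes was taken within every sample and compared between the groups. Of the 10 ratios, 4 differed after adjustment over the 10, and the same number differed in the deposited values. The test was an exact two-sided permutation test over the 12 samples, taken as unpaired and independent. All 4 ratios set HEMA3 or AT1G74470 against SIRB or CHLM. SIRB and CHLM had been called in the opposite direction to AT1G74470, so their ratios to it restate those calls in part. The ratios of HEMA3 to SIRB and CHLM likewise hold the called falls of SIRB (-0.58) and CHLM (-0.60), beside 0.17 for HEMA3. They are not separate support for those falls. The share of other probe pairs whose ratio differs, or does not overlap between the groups, was not computed. Whether such ratios are unusual on this array is therefore unknown, while 17.1% of tested probes were called higher and 20.9% lower. The ratios describe unequal changes, not which of the paired genes moved, and the genes were chosen with earlier results of these data known.

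The ratio of HEMA3 to SIRB was 1.68-fold higher with proline (log2 change 0.75, SE 0.11, 95% interval 0.49 to 1.01). Relative to the water mean, the 6 water samples lay between -0.32 and 0.26 and the 6 proline samples between 0.60 and 0.89, so the groups did not overlap. The permutation p of 0.0022 (adjusted 0.0054) was the smallest that 924 regroupings can give. HEMA3 over CHLM gave nearly the same value, a log2 change of 0.77 (SE 0.11, 95% interval 0.54 to 1.01, exact permutation p = 0.0022, adjusted 0.0054). These 2 ratios were close to that in the deposited values, at 0.78 and 0.77. They were 0.85 and 0.87 under cyclic loess, and 0.64 and 0.67 without a floor. The groups overlapped in neither ratio, so both ratios were by construction higher with proline in 6 of 6 same-numbered comparisons.

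The ratios to AT1G74470 were larger but moved with the scaling. CHLM over AT1G74470 fell to 0.499 of its water value (95% interval of the log2 change -1.30 to -0.70). SIRB over AT1G74470 fell to 0.505 (95% interval -1.20 to -0.77). Each had an exact permutation p of 0.0022 (adjusted 0.0054). Neither ratio overlapped between the groups, so both were by construction lower in 6 of 6 same-numbered comparisons. In the deposited values the log2 changes were -0.60 and -0.61 (exact permutation p = 0.0152, adjusted 0.038 for each). Among the steps of chlorophyll synthesis, CHLM and AT1G74470 thus changed unequally under both scalings, if the 12 samples are taken as unpaired and independent. With same-numbered samples compared after quantile normalization, this ratio missed the threshold (exact paired test, adjusted p = 0.078).

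The siroheme and magnesium branches could not be told apart by SIRB and CHLM. The change of their ratio was 0.019 (SE 0.16, 95% interval -0.30 to 0.38, exact permutation p = 0.926, adjusted 0.926), an interval that holds changes in either direction. HEMA3 over AT1G74470 had a log2 change of -0.24 (95% interval -0.45 to -0.04, exact permutation p = 0.030, adjusted 0.061), which turned to 0.17 in the deposited values, so the order of these changes is not settled. The 4 ratios with Z-ISO had intervals from -1.37 at the lowest to 1.92 at the highest, and none passed (exact permutation p from 0.162 to 0.680, adjusted 0.271 to 0.755). With the means of sample pairs the smallest exact p is 0.10, so no ratio could pass. With same-numbered samples compared, the 4 ratios above reached the smallest exact p of that test, 0.031, and missed the threshold after adjustment over the 10 (adjusted p = 0.078).

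**Figure D4:**
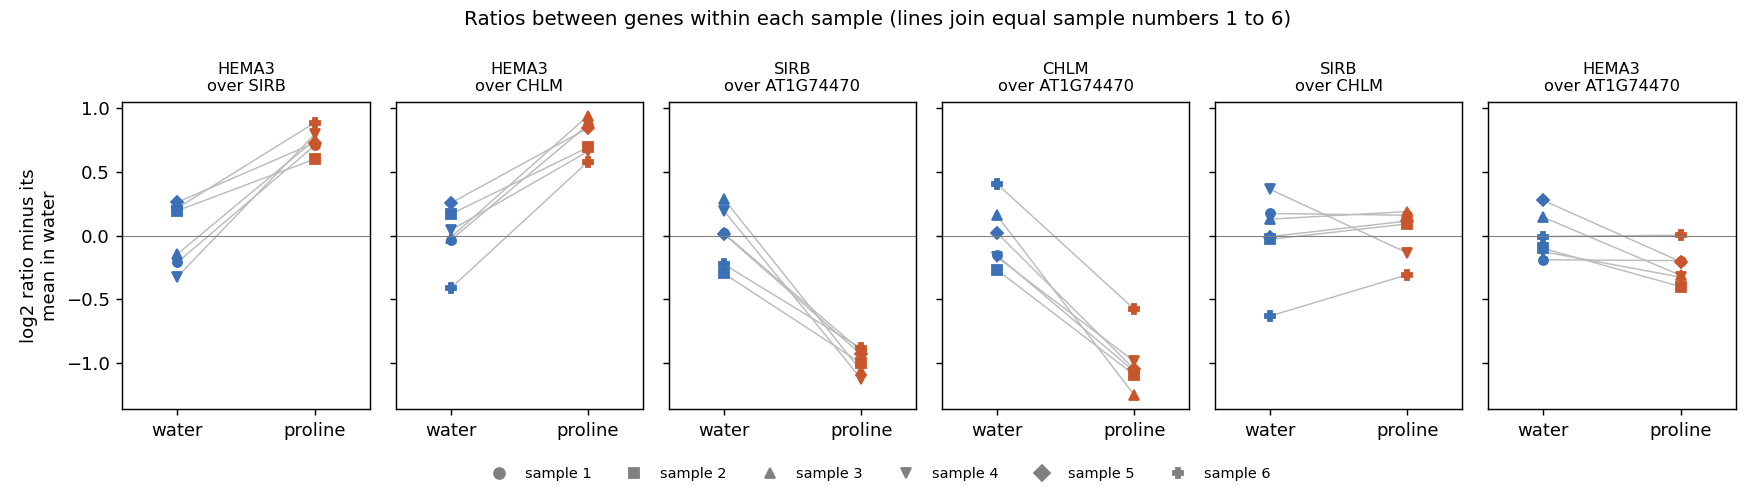
Log2 ratio of 6 gene pairs within each sample, minus its mean in water, with lines joining samples of the same number (symbols for numbers 1 to 6). HEMA3 over SIRB and HEMA3 over CHLM lay higher in all proline samples, the ratios of SIRB and CHLM to AT1G74470 lay lower, and SIRB over CHLM and HEMA3 over AT1G74470 overlapped between the groups.

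For each gene, the 3 probes with 1 gene whose levels followed it most closely were found by Pearson correlation over the 12 samples among 619 others. Because the groups differ for many probes, a high correlation here reflects the treatment as well as the spread within groups, and no test was made. AT1G74470 was followed most closely by AT4G16410 (r = 0.97), OSB1 (0.94) and AT5G65220 (0.92). For SIRB these were AT4G16060 (0.91), chr31 (0.89) and CYN (0.88), and for CHLM they were AGL103 (0.90), PAC (0.88) and AT4G22830 (0.87). Z-ISO was followed by SECE1 (0.84), AT1G50390 and RALFL32 (0.79 each), none of which passed the test between the groups. HEMA3 had the lowest of these correlations, with 0.75 for AT3G50350, 0.74 for AT3G21810 and 0.73 for PRA1.B3. With the group means taken out, the correlations with the same probes were 0.60 to 0.67 for HEMA3 and 0.50 to 0.76 for SIRB. They were 0.46 to 0.65 for CHLM, 0.51 to 0.83 for AT1G74470 and 0.81 to 0.84 for Z-ISO, so HEMA3 was not the loosest there.

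Most of the pathway was out of reach of these probes. Of 93 listed genes of tetrapyrrole, chlorophyll, heme, carotenoid, tocopherol and plastid isoprenoid metabolism, the 5 members alone had a probe of their own. Another 7 were paired with 5 probes that also list other genes and are not reported. No gene of heme and bilin synthesis, chlorophyll breakdown or isoprenoid supply was measured by its own probe, so 1 or 2 genes stand for each branch described. Of 13 listed markers of green tissue, 5 were measured, and 0 of 8 root markers. PSBY (log2 fold change -0.72) and LHB1B2 (-0.46), a photosystem II subunit and a light-harvesting protein, were called lower, and PSBW, another photosystem II subunit, was called higher (0.64). PSAN, a photosystem I subunit, was at -0.22 and PRK, a Calvin cycle kinase, at -0.19, and neither passed. With the means of sample pairs PSBY, LHB1B2 and PSBW missed the threshold (limma adjusted p = 0.080, 0.127 and 0.056). These markers also moved with the scaling. Under median centring PSBW was at -0.31, LHB1B2 at -0.95, and PSAN was called lower (-0.58, adjusted p = 0.0047). PSAN was also called lower without proline samples 3 and 4 (-0.41, adjusted p = 0.026). In the deposited values PSBY and PSBW were not called (adjusted p = 0.096 and 0.090), and under cyclic loess LHB1B2 was not (adjusted p = 0.169). The median of these 5 was -0.22, and the part that any change in green tissue plays in the values of the pigment genes was not tested.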

How the data were processed

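The deposited table holds intensities on a linear scale of 0 to 100 for 12 samples; the platform and the authors' scanning, correction and scaling are not stated in the labels used here. All columns belonged to these samples. Groups and replicate numbers came from the titles. Probes were named through GEO's platform annotation, which can be old: 692 probes list 1 gene, 870 several and 1877 none. Of the 692, 690 matched gene names of assembly TAIR10.1 by gene number. No build is named, so no coordinates are given, and no sequences were used.

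Values were quantile-normalized, floored at 0.0377 (the 5th percentile of positive deposited values) and taken to log2. After removal of 342 probes that never exceeded the floor, 3097 entered limma 3.58.1 (R 4.3.3; lmFit, eBayes, two-sided, threshold 0.05), without a block. The scripts were tested on simulated data in which all samples were independent. That check therefore does not cover the pairing and likeness of samples described here. Same-numbered water and proline samples deviated together (correlations of 0.46, 0.47, 0.29, 0.30, 0.20 and 0.16 for numbers 1 to 6), which the rule used here takes as pairing. Neither the main fit nor the permutation test over all samples used that pairing. No setting run took it together with the likeness of samples 1 and 2, 3 and 4, or 5 and 6. The median absolute log2 difference was 0.149 to 0.178 within samples 1 and 2, 3 and 4, or 5 and 6 of a group, and 0.227 to 0.398 otherwise.

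The members, lists and tests were chosen with earlier results of these data known. Named were the 5 members, every listed gene with its own probe, and for each member the 3 probes with 1 gene most correlated with it. Alternatives covered scaling, floor, dim and ceiling probes, block, sample pairs and left-out samples. Leaving out a set of numbers from both groups, and joining a scaling with the loss of proline samples 3 and 4, were added after the data were seen.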

Additional observations from a re-analysis of the deposited data

How the results depend on the processing

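SIRB, CHLM and AT1G74470 kept their direction and call when any 1 of the 12 samples was left out, with the replicate number as a block (limma adjusted p = 0.0054, 0.0034 and 0.0113), with the sample pairs as a random block (0.030, 0.034 and 0.031), without proline samples 3 and 4, and with any set of numbers left out of both groups. They also kept both with no floor or a higher one, under cyclic loess, and without dim or ceiling probes. Leaving out 1 sample keeps the sample of its group most like it, so it tests less than leaving out a set of numbers. The replicate block changed no other call among the 5 genes. With the means of sample pairs 530 probes were called, and SIRB (-0.58), CHLM (-0.60) and AT1G74470 (0.40) lost their calls; the values stay the same by construction and 3 means per group replace 6 samples. The random block called 757 probes, against 1176. In the ratio tests 0 of 10 pairs passed with the means of sample pairs, whose smallest exact p is 0.10, and 0 with the replicate block, where the 4 pairs had an adjusted p of 0.078.

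Median centring gave AT1G74470 0.0091, PSBW -0.31, HEMA3 over AT1G74470 0.17 and SIRB over CHLM -0.012. The values as deposited gave the same changes of these ratios, 0.17 and -0.012. A factor common to a sample cancels in its ratios, so apart from the floor this sameness is by construction. Log2 fold changes of the values as deposited were 0.75 for HEMA3, -0.030 for SIRB, -0.018 for CHLM, 0.13 for Z-ISO and 0.012 for PRK. The median of all probes stood 0.41 higher there. Without proline samples 3 and 4 SIRB over Z-ISO was 0.29 and CHLM over Z-ISO 0.27. With median centring as well, HEMA3 was called at 0.32, HEMA3 over AT1G74470 was 0.10, SIRB over CHLM -0.037, SIRB over Z-ISO 0.33 and CHLM over Z-ISO 0.37. With the values as deposited and without these samples, HEMA3 was at 0.67, SIRB at -0.28, CHLM at -0.25 and PRK at 0.10. The ratios there were 0.10, -0.037, 0.32 and 0.35 in the same order. Without samples 5 and 6 of both groups Z-ISO stood at 0.50 and PRK at 0.0069. Leaving out samples 1 and 2 or samples 3 and 4 of both groups ended the calls of PSBY and LHB1B2. The former gave PRK one (-0.46, limma adjusted p = 0.014). The cause of these shifts was not tested.

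Leaving out 1 sample at a time gave log2 fold changes of -0.58 to 0.032 for Z-ISO, which turned positive without proline sample 5. The change of SIRB over CHLM ran from -0.11 to 0.092 and that of CHLM over Z-ISO from -0.62 to 0.0076. The 4 ratio calls held with any 1 sample left out and wherever else tested, except with pair means and the replicate block. The random block, left-out sets of numbers and probe removals had no ratio test. HEMA3 over AT1G74470 also passed without a floor, without water sample 1 and without proline sample 6 (exact permutation, adjusted p = 0.048, 0.048 and 0.0087). HEMA3 over Z-ISO passed under median centring and as deposited without proline samples 3 and 4 (exact permutation, adjusted p = 0.048 in both). These ratios differ only through the floor. The number of arrays limits all these values, and Z-ISO lay under the floor in 1 sample.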
